A study of Mus musculus with 2 samples.

Results

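The genes described here encode 3 families of scaffold proteins of the excitatory synapse: the membrane-associated guanylate kinases Dlg1, Dlg2, Dlg3 and Dlg4, the Shank proteins Shank1, Shank2 and Shank3, and the Homer proteins Homer1, Homer2 and Homer3. They were chosen by gene symbol, matched through the mouse GENCODE annotation to the gene identifiers of the deposited tables, with no threshold on a measured value, although earlier results of these data were known when they were chosen. All 10 matched 1 gene each, of 43346 genes with an Ensembl identifier. RNA was measured by total RNA-seq in hindbrain of healthy B6NCrl mouse embryos at embryonic day 16.5, with male and female embryos pooled. The labels name no mutant allele and no treatment. There was 1 group of 2 biological replicates. Replicate 2 was pooled from 37 embryos, and the number pooled for replicate 1 is not given. No conditions could be contrasted, and 2 libraries allow no permutation p under 0.5, so levels, their spread and their order are given without p-values.

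These proteins stack in layers under the synaptic membrane. Dlg proteins, of which Dlg4 is widely called PSD-95, bind the tails of NMDA receptors, of AMPA receptor auxiliary subunits and of adhesion proteins. Linker proteins of the Dlgap family join them to Shank proteins, and Shank proteins bind Homer proteins, which in turn hold group I metabotropic glutamate receptors and calcium-release channels. Long Homer proteins pair through a coiled coil at their end, and a short form of Homer1 lacks that coil and so cannot cross-link its partners.

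The libraries held 42467811 and 42017008 estimated read counts. Levels are given in TPM, the deposited abundance per unit of transcript length scaled to the library total. Hindbrain markers were present, with 6 of 7 at 1 TPM or more in both replicates and En2, a midbrain and cerebellar gene, at 0.34 and 0.46 TPM. All 6 neuronal markers passed that level. The 7 forebrain markers had summed levels of 16.4 TPM (replicate 1) and 0.36 TPM (replicate 2), and Emx1 was at 0 in replicate 2. The 6 skeletal muscle markers summed to 177 and 5.11 TPM, and all 6 were over 2-fold higher in replicate 1. The 4 meningeal markers summed to 580 and 317 TPM, and 1 of them, Col1a1, was over 2-fold higher in replicate 1 (2.55-fold). The 5 markers of astrocytes and radial glia summed to 2408 and 3128 TPM, mostly from Fabp7 at 1840.72 and 2398.62 TPM. Of these 5, Gfap (3.34-fold) and Aqp4 (2.28-fold) were over 2-fold higher in replicate 2. The part of these differences in the ratios below was not tested. In whole tissue, fewer cells of a type and less RNA per cell cannot be told apart.

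All 10 scaffold genes were detected, meaning 1 TPM or more in both replicates, as were 63.5% of 21474 protein-coding genes. Because TPM divides by the annotated length, levels can be set side by side between genes. The mean levels ran from 28.4 TPM for Shank1 to 5.39 TPM for Homer2, a 5.26-fold range. The place of Homer2 rests on the deposited length of 1 record. At that record's length in the later annotation, with all reads kept, Homer2 would read 34.0 and 37.2 TPM, above Shank1. That reading is an upper value and leaves all other genes at their deposited lengths. Other leading records changed length as well, such as Shank1-203 (7605 to 9826 bases) and Dlg4-201 (3204 to 2708 bases). The median of the deposited levels was 10.3 TPM, against 19.5 TPM over the 13630 detected protein-coding genes. Shank1 lay above 60.4% of those genes and Homer2 above 19.9%. By deposited mean level the order was Shank1, Dlg2, Homer3, Dlg4, Dlg1, Dlg3, Homer1, Shank2, Shank3 and Homer2. Summed over family members, Dlg genes reached 58.1 and 63.89 TPM in replicates 1 and 2, Shank genes 41.36 and 43.13 TPM, and Homer genes 34.01 and 34.68 TPM. These sums include noncoding and incomplete transcripts and use the deposited Homer2 length. The order of the families depends on both choices. Dlg2 alone falls to 7.14 and 6.47 TPM in complete coding transcripts, described below, and Shank1 keeps 27.02 and 28.10 TPM.

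**Figure D1:**
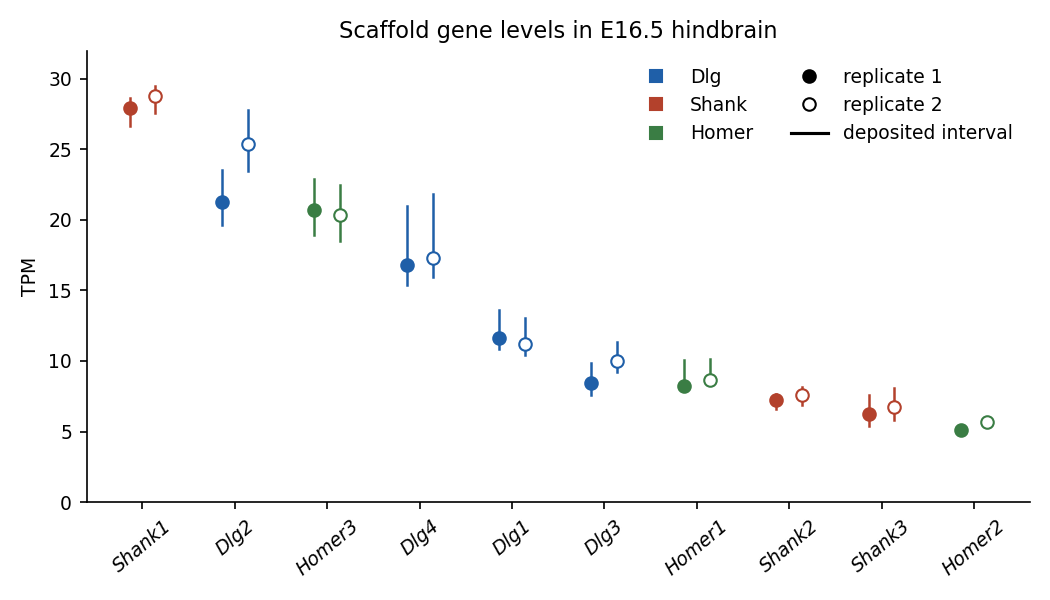
TPM of each scaffold gene in replicate 1 and replicate 2, in order of mean level, with vertical lines for the interval deposited with each value and 1 colour per family. Shank1 is highest at 27.91 and 28.82 TPM and Homer2, at its deposited transcript length, lowest at 5.10 and 5.68 TPM, and most neighbours in the order have overlapping intervals.

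The deposited tables give an interval around each TPM, whose level is not stated and which covers estimation within 1 library. A pair of genes was called separate where these intervals did not overlap in either replicate and the order was the same. Of the 45 pairs of scaffold genes, 35 were separate. The background was 68.5% of pairs of detected protein-coding genes within the same range of mean TPM, and 89.2% of all pairs of detected protein-coding genes. Within families, 9 of 12 pairs were separate. Of the 9 pairs of neighbours in the order, only Dlg4 over Dlg1 and Homer1 over Shank2 were separate, so the exact ranks of most neighbours are not resolved. With all reads kept at the later, shorter Homer2 length and other genes unchanged, the 8 separate pairs that held Homer2 reversed.

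Among the Dlg genes, Dlg2 and Dlg4 were the higher pair. Dlg2 (PSD-93; ENSMUSG00000052572.11, chr7:90476672-92449247, GRCm38, plus strand) read 21.24 and 25.41 TPM, a mean of 23.3 ± 2.95 (SD, n = 2). Dlg4 (ENSMUSG00000020886.12, chr11:70016942-70047522, plus strand) read 16.78 and 17.29 TPM, a mean of 17.0 ± 0.361 (SD, n = 2). The Dlg2 and Dlg4 intervals overlapped in replicate 1, and those of Dlg2 lay above in replicate 2, so this pair was not called separate.

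Dlg1 (SAP97, also a polarity protein of epithelia; ENSMUSG00000022770.12, chr16:31663443-31875129, plus strand) read 11.62 and 11.17 TPM, a mean of 11.4 ± 0.318 (SD, n = 2). Dlg3 (SAP102, an X-linked gene and the member best known from early synapses; ENSMUSG00000000881.8, chrX:100767722-100818410, plus strand) read 8.46 and 10.02 TPM, a mean of 9.24 ± 1.10 (SD, n = 2). Dlg1 and Dlg3 were separate in replicate 1 and not in replicate 2. Dlg2 was 2.04-fold above Dlg1 (log2 ratio 1.03 ± 0.22, SD, n = 2) and 2.52-fold above Dlg3 (log2 ratio 1.34 ± 0.010, SD, n = 2), and both pairs were separate. Dlg4 was also separate from and above Dlg1 (log2 ratio 0.58 ± 0.071, SD, n = 2).

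A gene's TPM sums over all its annotated transcripts, and the share in complete coding transcripts differed widely among the Dlg genes. Transcripts were classed by the later GENCODE release M21, and a complete coding transcript is one with an annotated start and stop codon. Its frame can still be shorter than that of the longest form, as in Dlg2-202 with 481 codons against 870 for Dlg2-201. Complete coding transcripts took 33.6% and 25.5% of the Dlg2 level, or 7.14 and 6.47 TPM. The highest Dlg2 transcripts by TPM were noncoding. The processed transcript Dlg2-207 led in replicate 1 with 29.88%, and the retained-intron transcript Dlg2-209 led in replicate 2 with 27.04%. TPM divides by length, and by read counts Dlg2-207 took 7.77% and 5.53% and Dlg2-209 took 9.10% and 18.9%. The coding Dlg2-204 took 36.2% and 18.4% of read counts, and the coding Dlg2-201 took 21.1% and 24.3%. Dlg2-209 read 2.92 and 6.87 TPM, and retained-intron transcripts together took 27.07% and 43.58% of the Dlg2 level. The Dlg2-209 record was 1926 bases in the deposited tables and 4236 bases in M21, so the deposited estimate may cover only part of that transcript. Dlg4 had 9.43 and 10.43 TPM in complete coding transcripts, Dlg1 had 6.40 and 6.80 TPM, and Dlg3 had 4.95 and 6.66 TPM. Counted this way, Dlg4 was 1.46-fold above Dlg2, the reverse of the order by whole-gene level, Dlg2 was 1.03-fold above Dlg1, and Dlg2 was 1.18-fold above Dlg3. Dlg1 and Dlg2, separate from and above Homer1 by whole-gene level, lay below it in both replicates by complete coding transcripts, where Homer1 was 1.28-fold above Dlg1 and 1.24-fold above Dlg2. Dlg1 and Shank2, also separate by whole-gene level, were then 6.40 and 6.80 against 6.62 and 6.65 TPM, with no common order. No deposited interval covers these sums, so every order by complete coding transcripts rests on point estimates and no such pair was called separate.

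Dlg2 carries a choice between a longer and a shorter exon in the linker between the SH3 domain and the guanylate kinase domain. The exons are shown because the deposited transcript estimates divide along them. Capitals mark the alternative exon and lower case the 20 bases on each side, read 5′ to 3′ on the plus strand of GRCm38 from GENCODE M21 transcripts. The Dlg2 exons lie at chr7:92417224-92417323 and chr7:92418088-92418133, each 210 codons before the end of the reading frame.
Dlg2 longer exon: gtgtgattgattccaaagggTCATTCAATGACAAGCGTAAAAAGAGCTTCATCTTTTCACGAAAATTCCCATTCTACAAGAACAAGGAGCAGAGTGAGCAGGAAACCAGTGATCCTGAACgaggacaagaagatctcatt
Dlg2 shorter exon: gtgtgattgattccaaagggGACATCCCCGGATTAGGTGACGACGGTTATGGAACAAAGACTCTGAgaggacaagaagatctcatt

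The longer exon is 100 bases and the shorter 46 bases. Both leave a remainder of 1 when divided by 3, so exchanging the longer for the shorter keeps the reading frame. Among coding transcripts of Dlg2, the longer exon was in 14.19% of the gene's TPM in replicate 1 and 15.69% in replicate 2. The shorter exon was in 19.45% and 9.81%. Dlg2-201, the main form with the longer exon, had intervals of 0.56 to 4.99 and 1.64 to 5.23 TPM. Dlg2-204, the main form with the shorter exon, had intervals of 0.68 to 5.17 and 0.0014 to 3.49 TPM. They overlapped in both replicates, so the order of the exons was not resolved.

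The leading Dlg1 transcript, Dlg1-206 (905 codons), read 2.86 TPM (interval 1.13 to 3.49) and 4.76 TPM (interval 3.53 to 5.19). A longer coding form, Dlg1-202 (927 codons), read 2.02 TPM (interval 1.06 to 3.15) and 0.53 TPM (interval 0.059 to 1.16). The replicate intervals of Dlg1-206 were apart and those of Dlg1-202 overlapped. Shares of transcripts that differ by 1 exon rest on the few reads that cross it and on the model that divides the rest.

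Dlg3 has optional rather than exchanged exons. Dlg3-202 (849 codons) carries both an upstream exon of 54 bases (chrX:100771307-100771360) and a downstream exon of 42 bases (chrX:100811502-100811543), and Dlg3-201 (817 codons) carries neither. Capitals again mark the exon, on the plus strand of GRCm38.
Dlg3 upstream exon: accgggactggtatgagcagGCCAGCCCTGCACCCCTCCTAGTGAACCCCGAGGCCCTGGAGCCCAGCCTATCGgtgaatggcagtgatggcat
Dlg3 downstream exon: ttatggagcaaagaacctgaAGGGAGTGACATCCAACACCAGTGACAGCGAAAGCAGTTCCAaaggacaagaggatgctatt

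Both lengths divide by 3, so the frame is kept with or without them. The downstream exon of Dlg3 lies 210 codons before the end, as the Dlg2 exons do. The 20 bases just before it match the last 20 bases of the Dlg2 shorter exon at 17 positions. Dlg3-201 led with 42.65% and 41.35% of the gene's TPM. Dlg3-202 took 15.89% and 25.19%, and the noncoding processed transcript Dlg3-208 took 29.47% and 24.42%.

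Dlg4 is known for an exon whose skipping shifts the frame and sends the message to nonsense-mediated decay, with the polypyrimidine tract proteins Ptbp1 and Ptbp2 as the repressors that cause the skipping. It is exon 18 of Dlg4-203 (chr11:70043658-70043767, 110 bases, which leaves a remainder of 2 when divided by 3). The exon is given in capitals on the plus strand of GRCm38 because all 3 complete coding transcripts hold it and the annotated decay transcript Dlg4-205 does not.
Dlg4 exon 18: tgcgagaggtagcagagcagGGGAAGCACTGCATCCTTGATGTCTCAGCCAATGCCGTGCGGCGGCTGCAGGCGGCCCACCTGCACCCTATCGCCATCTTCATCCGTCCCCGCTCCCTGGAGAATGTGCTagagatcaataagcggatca

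The 3 complete coding transcripts with exon 18 summed to 9.43 and 10.43 TPM, which is 56.15% and 60.36% of the Dlg4 level. Dlg4-201 (664 codons) was the highest at 51.47% and 49.76%, and Dlg4-203 (724 codons), whose start differs, took 4.68% and 10.60%. Dlg4-205 was estimated at 1.10 and 1.44 TPM, or 6.53% and 8.33%. Its record was 729 bases in the deposited tables and 2888 bases in M21, so the deposited estimate may cover only part of that transcript. Ptbp1 read 66.49 and 51.3 TPM and Ptbp2 133.77 and 123.28 TPM. Ptbp2 was 2.20-fold above Ptbp1, and this pair was separate in both replicates. No contrast here relates these repressor levels to the exon.

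Among the Shank genes, 1 gene stood above the others. Shank1 (ENSMUSG00000038738.11, chr7:44310253-44360572, plus strand) read 27.91 and 28.82 TPM, a mean of 28.4 ± 0.643 (SD, n = 2). Shank2 (ENSMUSG00000037541.15, chr7:144001928-144424494, plus strand) read 7.20 and 7.58 TPM, a mean of 7.39 ± 0.269 (SD, n = 2). Shank3 (ENSMUSG00000022623.11, chr15:89499623-89560261, plus strand), the gene affected in Phelan-McDermid syndrome, read 6.25 and 6.73 TPM, a mean of 6.49 ± 0.339 (SD, n = 2). Shank1 was 3.84-fold above Shank2 (log2 ratio 1.94 ± 0.020, SD, n = 2) and 4.37-fold above Shank3 (log2 ratio 2.13 ± 0.043, SD, n = 2), and both pairs were separate. Shank2 and Shank3 overlapped in both replicates.

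The whole-gene level of Shank3 came mostly from 1 short record. Shank3-207 is 719 bases long, has 3 exons (chr15:89532890-89543816), and holds 135 codons of a frame with no annotated end. It took 73.73% and 73.55% of the Shank3 TPM but 21.4% and 20.7% of the gene's read counts, since TPM divides by length. The complete Shank3 transcripts Shank3-201 (1730 codons) and Shank3-203 (1805 codons) took 17.67% and 16.87%, and 5.67% and 6.96%. Complete coding transcripts summed to 1.46 and 1.61 TPM for Shank3, against 27.02 and 28.10 TPM for Shank1 and 6.62 and 6.65 TPM for Shank2. Counted this way Shank1 was 18.0-fold above Shank3, and Shank2 was 4.33-fold above Shank3, while Shank1 over Shank2 was 4.15-fold.

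Shank1-203 (2167 codons) made up 96.61% and 97.44% of the Shank1 level. Shank2 was divided among forms of different length: Shank2-202 (1472 codons) took 52.05% and 51.57%, Shank2-205 (1262 codons) took 18.14% and 18.74%, and Shank2-203 (1841 codons) took 16.83% and 13.97%. The longer Shank2 form adds ankyrin repeats at the start, a region that the shorter forms start beyond. The 3' end of Shank1 overlaps 530 bases of 1700008O03Rik on the opposite strand, which read 4.54 and 4.92 TPM, and Shank3 overlaps Gm15609 on the opposite strand, which read 0.94 and 1.18 TPM. No source used here states whether reads were counted by strand.

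**Figure D2:**
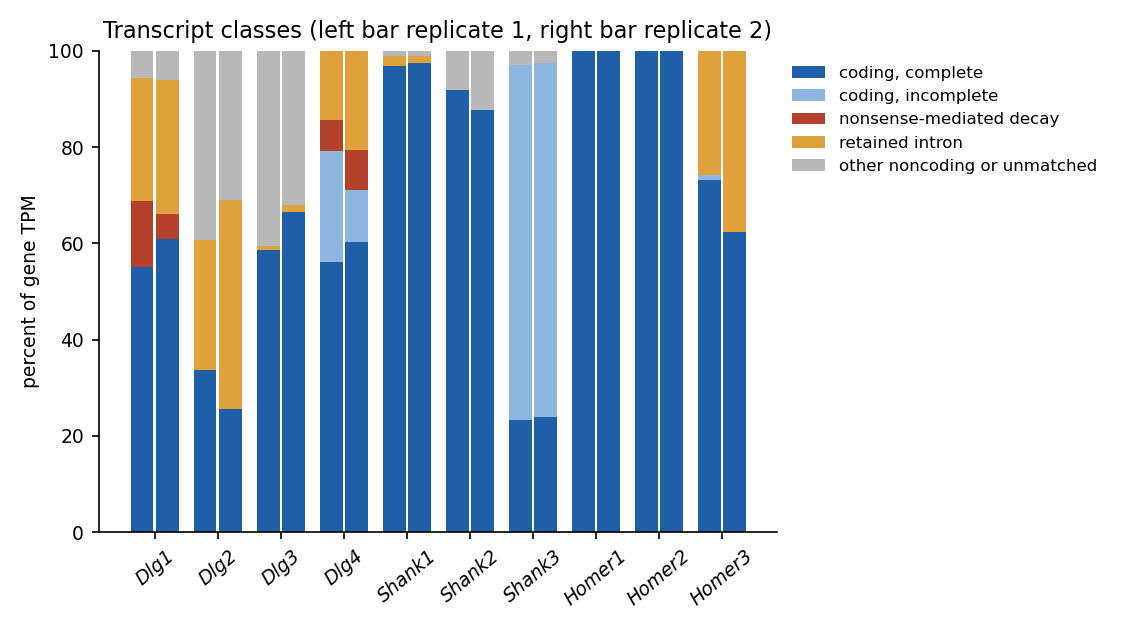
Percent of each scaffold gene's TPM in complete coding, incomplete coding, retained-intron, nonsense-mediated decay and other transcripts, with 1 bar for each replicate. Shank1, Homer1 and Homer2 are nearly all complete coding transcripts, whereas incomplete coding transcripts take 73.73% and 73.55% of Shank3 and noncoding classes take most of Dlg2.

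Among the Homer genes, Homer3 was highest. Homer3 (ENSMUSG00000003573.11, chr8:70282827-70294361, plus strand) read 20.70 and 20.38 TPM, a mean of 20.5 ± 0.226 (SD, n = 2). Homer1 (ENSMUSG00000007617.13, chr13:93299635-93405129, plus strand) read 8.21 and 8.62 TPM, a mean of 8.42 ± 0.290 (SD, n = 2). Homer2 (ENSMUSG00000025813.9, chr7:81600481-81707527, minus strand) read 5.10 and 5.68 TPM, a mean of 5.39 ± 0.410 (SD, n = 2). All 3 pairs were separate: Homer3 was 2.44-fold above Homer1 (log2 ratio 1.29 ± 0.066, SD, n = 2) and 3.82-fold above Homer2 (1.93 ± 0.13), and Homer1 was 1.56-fold above Homer2 (0.64 ± 0.060). The pairs with Homer2 rest on the deposited length of its record.

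The Homer2 level depends on the length of 1 record. Homer2-201 took 100% and 98.04% of the gene's TPM, and its length was 10999 bases in the deposited tables and 1736 bases in M21. At the M21 length, with all reads kept and the other genes at their deposited lengths, Homer2 would read 34.0 and 37.2 TPM. That is 4.22-fold above Homer1 and 1.73-fold above Homer3. This Homer2 level is an upper value, since reads from the bases left out are still counted for the shortened record. Homer2-202, 10982 bases in both annotations, reaches chr7:81600481, past the M21 boundary of Homer2-201 at 81609730. Reads from the bases left out could pass to Homer2-202, and that division was not estimated. Homer2 had 1394 and 1592 read counts, more than the 645 and 682 of Homer1, although its TPM was lower. Homer3 overlaps the helicase gene Ddx49 on the opposite strand by 1496 bases, and Ddx49 read 35.25 and 35.75 TPM. Homer3-203 and Homer3-201, each with 359 codons, took 45.57% and 31.60%, and 23.52% and 26.12%, of the Homer3 level. The retained-intron transcript Homer3-207 took 18.73% and 29.06%. Complete coding transcripts of Homer3 summed to 15.13 and 12.72 TPM.

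Homer1 makes long forms with the coiled coil and short forms without it, of which Homer1a is known to be induced by neuronal activity and to end in sequence that the long forms splice out. The point where they part is shown, with 40 shared bases in lower case and the next 34 bases in capitals, on the plus strand of GRCm38. The short end lies at chr13:93356080-93356113 and closes with a stop codon, and the long continuation in Homer1-202 lies at chr13:93387524-93387557.
Homer1 short end: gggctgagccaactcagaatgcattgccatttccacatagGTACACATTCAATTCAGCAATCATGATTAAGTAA
Homer1 long continuation: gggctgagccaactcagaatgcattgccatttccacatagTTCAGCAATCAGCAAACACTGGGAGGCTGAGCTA

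The 3 long transcripts, which reach the last stop codon of the gene with 354 to 370 codons, took 82.84% and 77.32% of the Homer1 level, or 6.81 and 6.66 TPM. The 5 short transcripts, whose frames stop earlier at 186 to 233 codons, took 16.83% and 22.67%, or 1.39 and 1.96 TPM. Homer1-204, the annotated transcript of 186 codons that corresponds to Homer1a, took 4.62% and 4.73%, at 0.38 and 0.41 TPM. The long forms were higher than the short forms in both replicates.

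The 2 main long transcripts also differ at the start and by 1 optional exon. Homer1-202 (370 codons, 60.21% and 64.81%) starts in a downstream first exon, and Homer1-203 (366 codons, 22.63% and 12.51%) starts in an upstream one and includes an optional exon of 36 bases (chr13:93386345-93386380). The start sequences show from the start codon to the exon's end in capitals (chr13:93305298-93305302 upstream, chr13:93308308-93308360 downstream), followed by 40 shared bases in lower case. The optional exon is in capitals between 20 bases on each side.
Homer1 upstream start: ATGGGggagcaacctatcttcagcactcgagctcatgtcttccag
Homer1 downstream start: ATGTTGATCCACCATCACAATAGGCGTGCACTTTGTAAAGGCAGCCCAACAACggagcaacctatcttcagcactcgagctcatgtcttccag
Homer1 optional exon: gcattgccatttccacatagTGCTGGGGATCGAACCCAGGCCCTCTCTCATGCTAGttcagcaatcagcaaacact

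The 2 starts leave the same shared sequence after 5 and 53 coding bases. The optional exon was in 22.96% of the Homer1 TPM in replicate 1 and 12.51% in replicate 2, and its length keeps the frame.

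Across the 10 scaffold genes, 9 were led by the same protein-coding transcript in both replicates, against 83.2% of the 10061 protein-coding genes that averaged at least 1 TPM and had 2 or more transcripts. Dlg2 was the exception, and the Shank3 leader is the incomplete Shank3-207. The median share of a scaffold gene's TPM in complete coding transcripts was 65.1%, against 86.7% over those genes. Of them, 5.62% had a share below that of Shank3 and 7.32% a share below that of Dlg2. These are shares of TPM, in which short records weigh more than in read counts. By read counts, Shank3-207 took 21.4% and 20.7% of Shank3. The coding Dlg2-204 took 36.2% and 18.4% of Dlg2 read counts, and Dlg2-201 took 21.1% and 24.3%. The deposited tables list 86 transcripts of the 10 genes, of which 28 reached 1 TPM in both replicates and 18 were at 0 in both. Of the 31 with a mean of 1 TPM or more, 3 had replicate intervals that were apart (Dlg1-206, Dlg2-209 and Dlg2-206), where the background was 12.4% of transcripts.

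**Figure D3:**
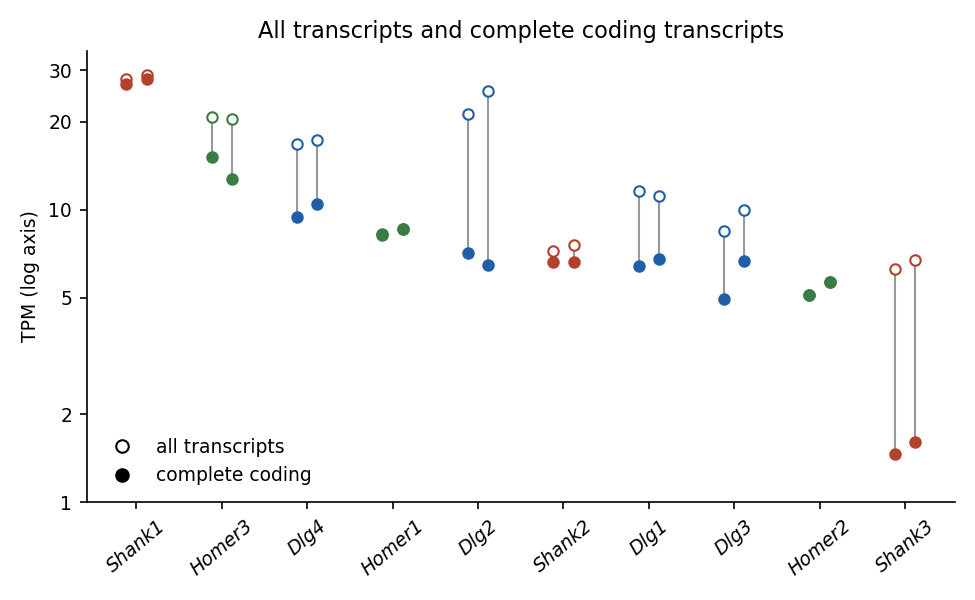
TPM of each scaffold gene from all its transcripts and from complete coding transcripts only, on a log axis, with replicate 1 on the left and replicate 2 on the right, in order of the complete coding level. Dlg2 lies lower when only complete coding transcripts are counted, going from 21.24 and 25.41 to 7.14 and 6.47 TPM and Shank3 goes from 6.25 and 6.73 to 1.46 and 1.61 TPM, whereas Shank1 keeps 27.02 and 28.10 TPM.

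The 2 replicate pools gave close values for the scaffold genes. After scaling of the counts by the trimmed mean of M-values (TMM), none of the 10 genes differed over 2-fold between replicates, where the background was 1.51% of protein-coding genes averaging at least 1 TPM. By these scaled counts Dlg3 differed most, at 1.31-fold higher in replicate 2 (95% interval from the counts 1.19 to 1.43), and Homer3 was 0.916-fold (0.834 to 1.01). These intervals cover counting error only. By TPM ratio Dlg2 differed most, with a log2 ratio of 0.26 against 0.24 for Dlg3. The log2 ratio of replicate 2 over replicate 1 was above 0 for 8 of the 10 genes, against 46.9% of protein-coding genes, with a median of 0.14 against -0.015. Scaling to the spike-in RNAs moved all genes up by 0.45 on the log2 scale and so put Dlg1 and Homer3, the only genes below 0, above 0 as well, while DESeq2 size factors and TPM ratios kept 8 of 10 above 0. The deposited TPM intervals of the replicates were apart only for Homer2, 1 of 10, against 31.4% of protein-coding genes.

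**Figure D4:**
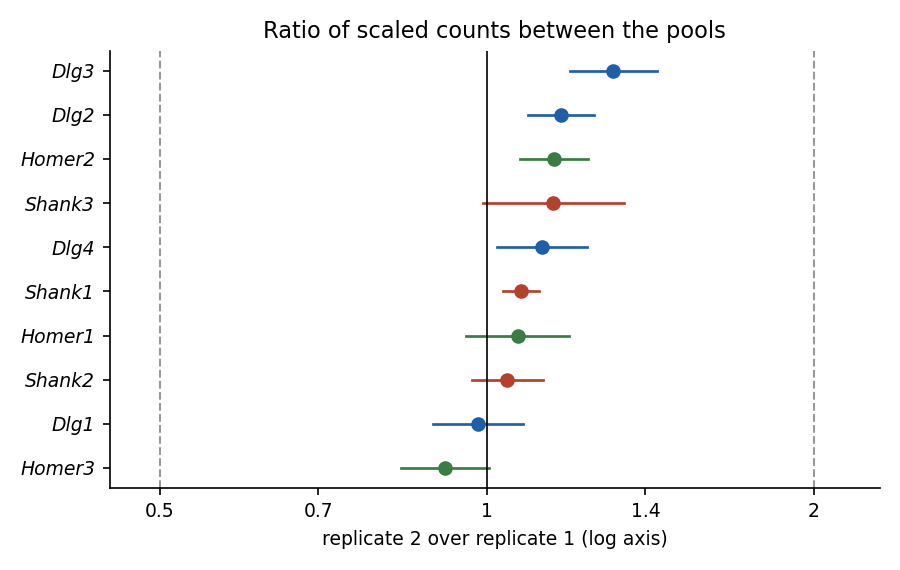
Ratio of TMM-scaled counts, replicate 2 over replicate 1, for each scaffold gene on a log axis, with horizontal bars for the 95% interval from the counts and dashed lines at the 2-fold limits. The ratios run from 0.916 for Homer3 to 1.31 for Dlg3, all inside those limits.

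Genes that bind, modify or resemble these scaffolds were read from 9 lists of 74 genes. Of these 72 were detected, and none with a mean of 1 TPM or more differed over 2-fold between replicates. Their median was 17.2 TPM. Among linkers and signalling proteins at Dlg, 15 of 15 were detected. The Dlgap linkers, which join Dlg to Shank, were led by Dlgap4 at 186.61 and 168.08 TPM, 5.99-fold above Dlgap1 at 29.15 and 30.02 TPM. Dlgap3 read 18.75 and 17.54 TPM and Dlgap2 10.72 and 9.07 TPM. Cript, a small protein that binds the Dlg4 PDZ domain, read 151.93 and 169.34 TPM, and the kinase subunit Camk2b read 116.86 and 115.34 TPM.

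All 12 partners of Shank and Homer were detected. Grm5, a metabotropic glutamate receptor that Homer holds, read 40.18 and 41.87 TPM. Cttn, the actin-binding cortactin bound by Shank, was highest at 161.22 and 151.68 TPM. Ryr2, a calcium-release channel, was lowest at 1.90 and 2.00 TPM.

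Of the ionotropic glutamate receptor genes, 9 of 10 were detected. Grin1, the obligatory NMDA receptor subunit, read 47.75 and 55.18 TPM, 3.01-fold above Dlg4. Grin2b read 25.68 and 25.86 TPM and Grin2a 4.46 and 7.03 TPM. Grin2c, a subunit typical of the mature cerebellum, read 0.60 and 0.51 TPM and was not detected by the 1 TPM rule. Gria2, an AMPA receptor subunit, was the highest of this list at 156.41 and 154.56 TPM.

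All 7 adhesion proteins bound by Dlg were detected, led by the neuroligin Nlgn3 at 76.24 and 72.39 TPM. All 8 enzymes that add palmitate to Dlg4 or remove it were detected, as were all 11 other membrane-associated guanylate kinases, where Cask was highest at 52.72 and 54.92 TPM. Gphn, the scaffold gephyrin of inhibitory synapses, read 42.26 and 39.49 TPM, 2.40-fold above Dlg4. All pairs with a fold given in these paragraphs on partners were separate in both replicates. Of 6 activity-regulated genes, 5 were detected, with a list median of 3.68 TPM, and Npas4 read 0.35 and 0.38 TPM.

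**Figure D5:**
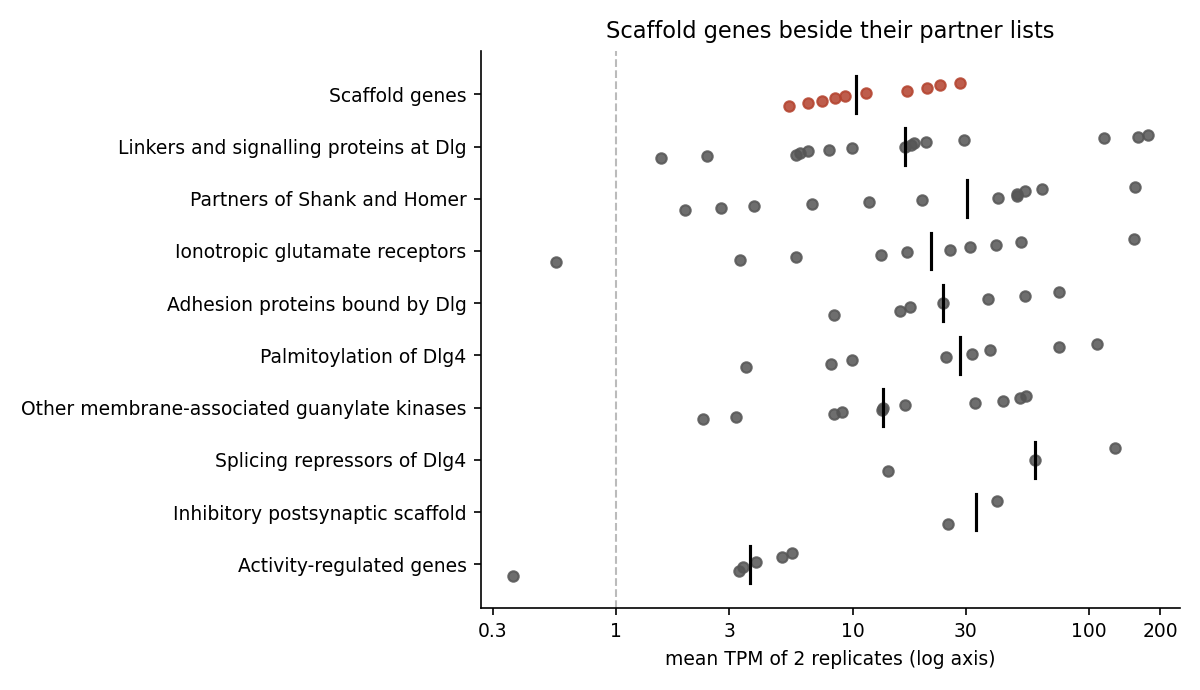
Mean TPM on a log axis for the genes of the 9 partner lists and the scaffold genes, 1 point per gene, with black bars for list medians and a dashed line at 1 TPM. The scaffold genes sit between 5.39 and 28.4 TPM, and the partner genes run from Npas4 and Grin2c below 1 TPM to Dlgap4.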

How the data were processed

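Total RNA-seq of 2 hindbrain pools was read from the deposited gene and transcript tables. Per the file headers, the authors gave estimated counts (expected counts), TPM and FPKM, a percent of gene TPM per transcript, and bounds of an interval (used as a score) on each value. The deposited notes name mm10 with GENCODE M4. No source used here gives the quantification program, the interval level or the strandedness. Names, transcript classes and exons came from GENCODE M21 on the same build, so a class may differ from that in M4. Of the 86 listed transcripts of the 10 genes, 63 had the same length in M21. The 10 genes and all lists were chosen with earlier results of these data known. Partner genes named were up to 4 of the highest and the lowest of each list, plus known binding partners.

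Replicate ratios used counts scaled by TMM in edgeR 4.0.16 with a prior count of 0.5, and 95% counting intervals. Pairs were compared by the deposited TPM intervals, and TPM was not tested as counts. The ratio step was tested on simulated data of 43346 genes, where 100% of 4-fold and 54% of 2-fold changes passed the 2-fold limit, and 1.23% of 15837 unchanged genes did. The simulated spread was set in advance and not estimated from these pools. Changes simulated exactly at the limit fall on either side of it, so the 2-fold share tells little about the step. Alternatives were DESeq2 1.42.0 size factors, spike-in totals, other detection minimums, FPKM, posterior means, coding transcripts only, the M21 length of the main Homer2 record and each replicate alone. The replicates differed beyond sampling noise (chi-square per degree of freedom 23.9), and each is 1 pool. Some genes and sequences are not reported here.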

Additional observations from a re-analysis of the deposited data

How the results depend on the processing

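All 24 alternative counts stayed within 1.5 times the main count, among them 5 of genes over 2-fold apart, which stayed at 0. Of those 5, 1 dropped a filter on TPM and repeats the main count, because no filter had been applied to the 10 genes. The scaffold genes detected stayed at 10 at 0.5 TPM, at 5 TPM and by FPKM. Partner genes detected were 73 at 0.5 TPM and 58 at 5 TPM, against 72. Separate pairs were 42 where 1 replicate sufficed and 29 with a mean fold of 1.5 or more, against 35, and 38 to 39 in single replicates. Of 266 other values, 132 were within the replicate SD or, for replicate ratios, the counting interval, and 120 moved beyond it. The other 14 changed the sign of the mean log2 ratio of a separate pair. A value from 1 of 2 replicates always lies within their SD, so such values among the 132 were fixed in advance. Counting coding transcripts only moved Dlg2 over Dlg4, a pair that was not separate, from a log2 ratio of 0.45 to -0.91. Counting complete coding transcripts only, a choice made after seeing the data, moved it to -0.55 and Shank1 over Shank3 from 2.13 to 4.17. Either count changed the sign of the mean log2 ratio of 3 separate pairs, by point estimates without intervals. It became -0.35 for Dlg1 over Homer1, -0.31 for Dlg2 over Homer1 and -0.0083 for Dlg1 over Shank2. Dlg1 over Shank2 was then near level, at -0.049 and 0.032 in replicates 1 and 2. The M21 length of the Homer2 record, also tried after seeing the data, reversed 8 separate pairs. The log2 ratio over Homer2 became -1.64 for Dlg1, -0.61 for Dlg2, -1.95 for Dlg3 and -1.06 for Dlg4. It became -0.33 for Shank1, -2.27 for Shank2, -2.08 for Homer1 and -0.79 for Homer3. In that alternative all Homer2 reads were kept and the other genes stayed at their deposited lengths. Posterior means moved a mean TPM by at most 8.28%, and leaving out spike-ins and mitochondrial features raised TPM by 9.29% and 8.29%. No paired analysis was possible because there was 1 group. Depth limits the isoform shares, and Shank3, with the fewest reads, had 335.29 and 381.85 counts.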
